A study of Mus musculus with 24 samples.

Results

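The 9 genes described here encode basic helix-loop-helix (bHLH) transcription factors that turn progenitors into neurons or hold them back, and their H3K4m3 was followed through 4 mouse organs. They were chosen by gene symbol from the table of normalized counts. They are the neuronal differentiation genes Neurod1, Neurod2, Neurod4 and Neurod6, the neurogenins Neurog1 and Neurog2, and Atoh1, Hes5 and Bhlhe22. All 9 of the 9 symbols were found among 27179 genes, and all 9 passed the filter on low values that left 25680 genes to be tested.

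The measurement was H3K4m3 ChIP-seq, in which DNA fragments bound to histone H3 trimethylated at lysine 4 are pulled down with an antibody and sequenced. Brain, heart, kidney and liver of mice were used either as formalin-fixed, paraffin-embedded tissue (FFPE) or as frozen tissue. The values came as 8 columns, 1 for each organ and preservation type, and each column is called a library here. The labels describe 12 H3K4m3 samples, 8 FFPE and 4 frozen, and 12 input samples without antibody; the columns name no antibody or replicate and were taken as H3K4m3 from the title of the table. For each organ 2 FFPE samples are labelled but there is 1 FFPE column, and no source used here says whether it merges them. Strain, sex and age of the mice are likewise unstated there. FFPE sections were deparaffinised and their chromatin extracted with heat, frozen cores were crosslinked with formaldehyde, and both were then sheared by ultrasound. The labels name 2 kit families without saying which sample had which, so preservation, preparation and kit cannot be told apart. Depth was 3388631 to 5275085 reads in FFPE libraries and 1792394 to 2976029 reads in frozen libraries. Organ markers were checked against the labels: 12 of 12 neuron markers passed the test as higher in brain, as did 5 of 6 heart, 5 of 6 kidney and 6 of 6 liver markers in their organs.

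As background, proneural bHLH factors bind E-box sequences in DNA as dimers with ubiquitous E proteins and switch on the neuronal program. Neurogenins and Atoh1 act in dividing progenitors, and NeuroD factors mostly act after them, in cells that are leaving the cycle or have become neurons. Notch signalling opposes them: the receptor's intracellular part joins the DNA-binding protein Rbpj, switches on repressors such as Hes5, and these silence proneural genes. H3K4m3 lies at the promoters of active genes and of many developmental genes that are silent but poised, so its level at a gene is not a measure of transcript.

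The promoters of 5 of these genes are shown because Neurod1, Neurod2, Neurod6 and Hes5 carried the brain differences below and Neurog2 did not. Bhlhe22, which also passed in brain, is the 1 of the 9 genes for which no such sequence was at hand. Each line gives 250 bases before and 50 after a start site, 5′ to 3′ on the gene's strand, from RefSeq's GRCm38.p6 table. For Hes5 and Neurog2 that start lies downstream of the outer start of the gene given with its values below, and the whole window lies inside the gene. Capitals mark the E-box CANNTG and the Rbpj core TGGGAA, read on either strand.

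Neurod1 (chr2:79456587-79456886, minus strand): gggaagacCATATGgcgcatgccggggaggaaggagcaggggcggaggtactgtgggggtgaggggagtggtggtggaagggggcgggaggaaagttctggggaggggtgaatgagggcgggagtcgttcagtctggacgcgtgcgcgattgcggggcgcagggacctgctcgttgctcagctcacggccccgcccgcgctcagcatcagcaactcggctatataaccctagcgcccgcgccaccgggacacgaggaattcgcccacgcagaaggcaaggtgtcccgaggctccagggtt
Neurod2 (chr11:98329596-98329895, minus strand): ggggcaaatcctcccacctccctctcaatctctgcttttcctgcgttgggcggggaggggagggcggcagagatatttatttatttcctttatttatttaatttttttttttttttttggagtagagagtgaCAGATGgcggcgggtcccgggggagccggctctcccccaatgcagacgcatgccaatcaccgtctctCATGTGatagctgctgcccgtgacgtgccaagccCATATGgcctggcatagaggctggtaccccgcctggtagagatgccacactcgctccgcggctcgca
Neurod6 (chr6:55681214-55681513, minus strand): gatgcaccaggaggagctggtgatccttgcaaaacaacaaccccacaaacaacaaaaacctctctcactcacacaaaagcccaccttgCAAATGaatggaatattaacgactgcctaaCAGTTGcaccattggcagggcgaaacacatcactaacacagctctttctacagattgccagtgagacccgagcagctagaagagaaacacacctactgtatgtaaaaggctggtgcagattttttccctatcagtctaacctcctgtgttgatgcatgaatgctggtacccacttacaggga
Hes5 (chr4:154960673-154960972, plus strand): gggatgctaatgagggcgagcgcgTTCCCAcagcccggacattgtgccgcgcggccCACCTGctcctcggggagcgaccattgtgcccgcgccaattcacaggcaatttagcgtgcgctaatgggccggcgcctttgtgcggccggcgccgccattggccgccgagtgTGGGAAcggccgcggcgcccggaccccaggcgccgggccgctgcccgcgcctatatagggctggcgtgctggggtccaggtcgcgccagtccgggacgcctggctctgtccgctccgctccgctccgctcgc
Neurog2 (chr3:127632886-127633185, plus strand): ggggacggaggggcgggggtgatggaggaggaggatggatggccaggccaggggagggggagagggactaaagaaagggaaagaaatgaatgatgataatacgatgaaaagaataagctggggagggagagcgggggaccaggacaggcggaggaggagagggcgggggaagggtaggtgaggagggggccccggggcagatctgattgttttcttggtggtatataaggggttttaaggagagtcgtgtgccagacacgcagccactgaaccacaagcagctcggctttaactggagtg

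Windows of 8 genes were searched. CANNTG was found 3 times in Neurod2, 2 times in Neurod6, and 1 time each in Neurod1, Neurog1 and Hes5, against at least 1 match in 72.3% of 32851 windows of all genes. Narrower forms of it are counted there too. The form CAGATG was found 1 time, in Neurod2 (17.2% of all windows), and the form CAGCTG in none of the 8 windows but in that of the other start of Neurod4, with its 1 CANNTG (16.3% of all windows). The Hes5 window held 2 matches of TGGGAA, 1 on each strand, and no other of these windows held any (25.6% of all windows). The N-box CACNAG, a sequence bound by Hes repressors, was found 3 times in Neurod6, 2 times in Neurod4, and 1 time each in Neurod1, Neurog2 and Atoh1 (42.5% of all windows). These are letter matches, and binding was not measured.

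The windows differed widely in CpG, the dinucleotide that is dense in promoter CpG islands. Hes5 had 41 CpG in its 300 bases, Neurog1 had 32, Neurod1 had 26, Atoh1 had 20, Neurod2 had 16 and Neurog2 had 10. Neurod4 had 4 at the start used here and 7 at its other start, and Neurod6 had 3. The median window of all genes had 7, so 6 of the 8 genes lay above it. Neurod6, low in CpG, and Hes5, the highest, were both higher in brain by the test given below.

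**Figure D1:**
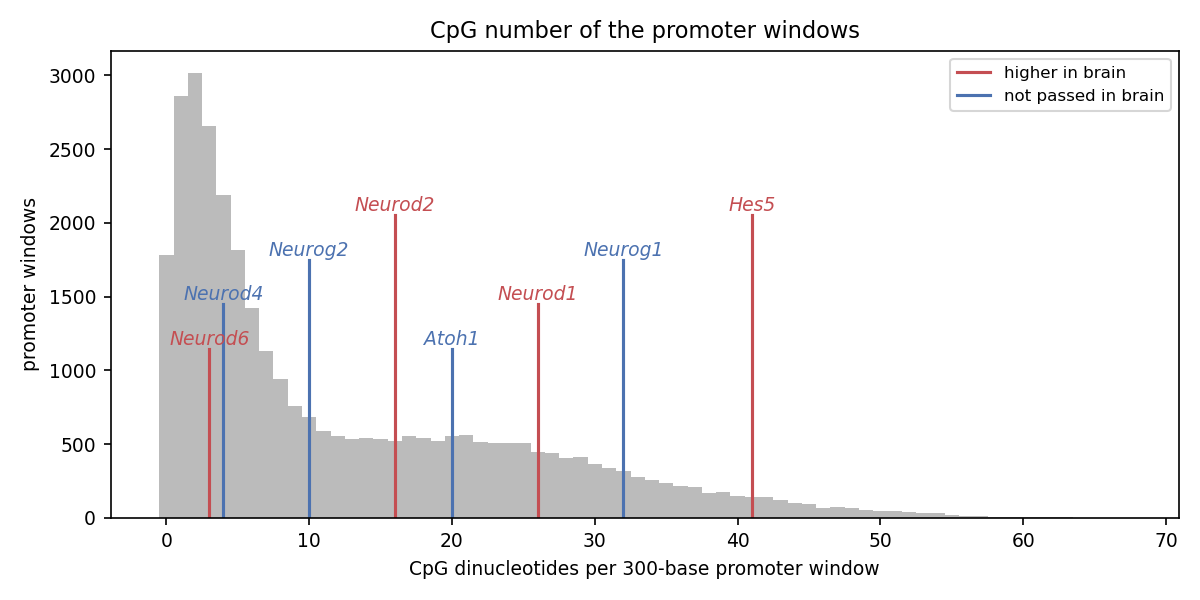
Number of CpG dinucleotides in the 300-base promoter window (horizontal axis) of all 32851 windows (histogram) and of the 8 genes with a window (labelled marks). The genes are spread from 3 CpG in Neurod6 to 41 CpG in Hes5, with the median of all windows at 7.

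Levels are given on the deposited scale, the log2 of CPM (reads scaled to a common library size) with a prior of 0.5 reads. They are not divided by gene length, so a level is compared between libraries for 1 gene and not between genes. A difference of 1 on this scale is a doubling. In bulk tissue, fewer cells carrying the mark at a gene and less of the mark in each cell cannot be told apart. Differences were tested with limma in 1 model of organ and preservation over the 8 libraries, and a gene passed when its Benjamini-Hochberg adjusted p over all tested genes was under 0.05.

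**Figure D2:**
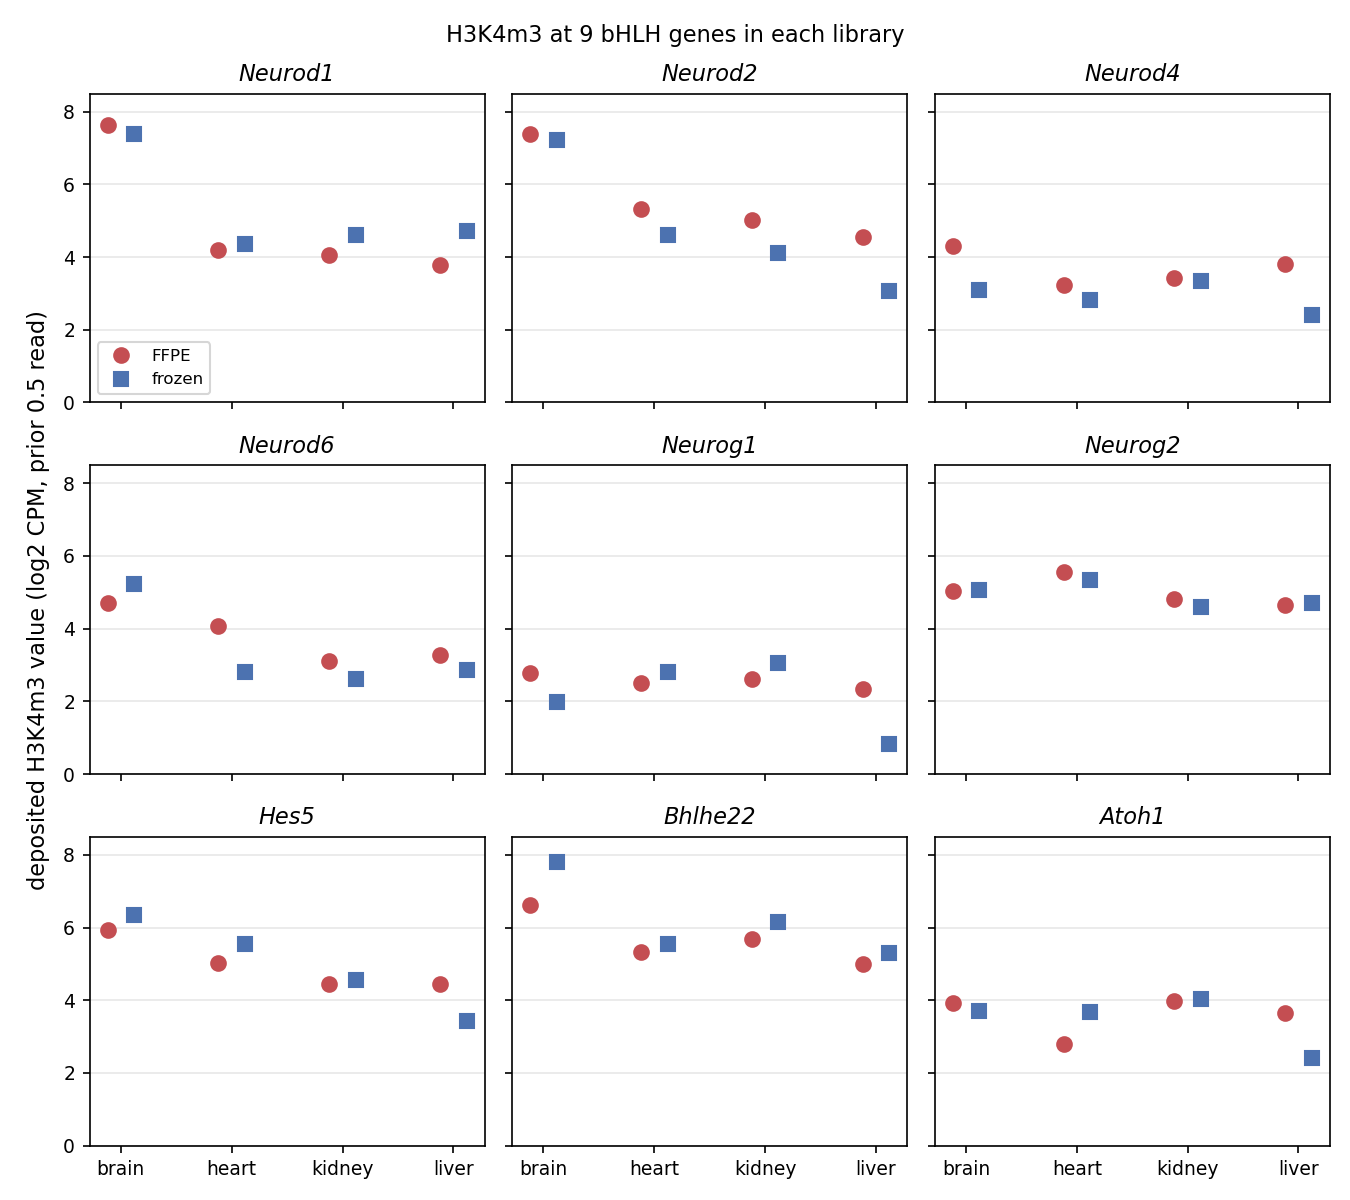
Deposited log2 level (vertical axis) of each of the 9 genes in the 8 libraries, by organ, with FFPE and frozen libraries as separate marks. Both brain libraries lie above the 6 others for Neurod1, Neurod2, Neurod6, Hes5 and Bhlhe22 and not for the other 4 genes.

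Brain was set against the mean of heart, kidney and liver. Of the 9 genes 5 were higher in brain, namely Neurod1, Neurod2, Neurod6, Hes5 and Bhlhe22, with differences of 1.57 to 3.23. None was lower and 4 did not pass: Neurod4, Neurog1, Neurog2 and Atoh1. Of all tested genes 5.53% passed as higher in brain, 4.53% as lower and 10.1% in either direction, so 5 of 9 was far above the share of the table. The genes were chosen with earlier results of these data known, so this comparison is a description only. The median difference of the 9 genes was 1.57, against -0.01 over all tested genes. For the same 5 genes both brain libraries lay above all 6 other libraries, which held for 7.56% of tested genes. The passing genes include 3 of the 4 NeuroD genes, and also Hes5, which keeps neural progenitors undifferentiated. The others include both neurogenins and Atoh1, which act in progenitors. The intervals of Neurog1 (-1.14 to 1.19) and Atoh1 (-0.50 to 1.30) are wide and overlap that of Hes5 (0.95 to 2.18).

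Neurod1 (gene ID 18012, chromosome 2, 79452637 to 79456636, GRCm38.p6) drives the differentiation of cerebellar and hippocampal granule neurons and of pancreatic endocrine cells. Its level was 7.62 in FFPE brain and 7.40 in frozen brain. It was 4.19 in FFPE heart and 4.36 in frozen heart, 4.05 in FFPE kidney and 4.59 in frozen kidney, and 3.77 in FFPE liver and 4.73 in frozen liver. The lower brain library stood 2.67 above the highest of the others, the widest gap of the 9 genes. In reads, brain had 1040 (FFPE) and 405 (frozen), against 36 to 92 in the others. The difference was 3.23 ± 0.25 (SE), or 9.37-fold, with a 95% interval of 2.69 to 3.77 and a limma adjusted p of 5.83e-06. It ranked 34th of the 25680 tested genes by size, and was 3.62 in FFPE libraries alone and 2.84 in frozen libraries alone.

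Neurod2 (gene ID 18013, chromosome 11, 98325415 to 98329645) acts in postmitotic excitatory neurons of the forebrain and in their synapse formation. Its level was 7.38 in FFPE brain and 7.23 in frozen brain. It was 5.32 in FFPE heart and 4.62 in frozen heart, 5.01 in FFPE kidney and 4.12 in frozen kidney, and 4.55 in FFPE liver and 3.08 in frozen liver. Brain stood clear of the other organs by 1.91, and kidney overlapped both heart and liver, while the lower heart library lay above the higher liver library. The difference was 2.86 ± 0.25 (SE), or 7.24-fold, with an interval of 2.31 to 3.40 and a limma adjusted p of 1.44e-05, ranking 75th. It was 2.42 in FFPE libraries alone and 3.29 in frozen libraries alone.

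Neurod6 (gene ID 11922, chromosome 6, 55677818 to 55681263) marks pyramidal neurons of cortex and hippocampus. Its level was 4.70 in FFPE brain and 5.22 in frozen brain. It was 4.09 in FFPE heart and 2.82 in frozen heart, 3.12 in FFPE kidney and 2.61 in frozen kidney, and 3.28 in FFPE liver and 2.86 in frozen liver. The gap between brain and the nearest other library, FFPE heart, was 0.62. The difference was 1.83 ± 0.39 (SE), or 3.56-fold, with an interval of 0.99 to 2.68 and a limma adjusted p of 0.00700. Depth at this gene was low, with 137 reads in FFPE brain and 89 in frozen brain, against 12 to 55 in the others. Without the frozen brain library the difference was 1.21 with an adjusted p of 0.567, and without the preservation term the adjusted p was 0.103.

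Bhlhe22 (gene ID 59058, chromosome 3, 18054325 to 18057514) is a repressor related to the Olig factors that acts in postmitotic neurons of cortex, retina and spinal cord. Its level was 6.63 in FFPE brain and 7.80 in frozen brain. It was 5.33 in FFPE heart and 5.56 in frozen heart, 5.70 in FFPE kidney and 6.15 in frozen kidney, and 4.99 in FFPE liver and 5.30 in frozen liver. The organs stood in the order brain, kidney, heart, liver, and no 2 neighbours in that order overlapped. The difference for brain was 1.71 ± 0.21 (SE), or 3.27-fold, with a limma adjusted p of 0.000123. It was 1.29 in FFPE libraries alone and 2.13 in frozen libraries alone, and without frozen brain the adjusted p was 0.0456.

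Hes5 (gene ID 15208, chromosome 4, 154960626 to 154962372) is a Notch target that represses proneural genes and keeps neural progenitors undifferentiated. Its level was 5.94 in FFPE brain and 6.34 in frozen brain. It was 5.03 in FFPE heart and 5.54 in frozen heart, 4.44 in FFPE kidney and 4.57 in frozen kidney, and 4.45 in FFPE liver and 3.43 in frozen liver. Brain was followed by heart and then by kidney without overlap, while kidney and liver overlapped. The brain difference was 1.57 ± 0.29 (SE), or 2.96-fold, with a limma adjusted p of 0.00255. Without frozen brain it was 1.30 with an adjusted p of 0.241, and without the preservation term the adjusted p was 0.0636.

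The other NeuroD gene, Atoh1 and both neurogenins did not pass in the brain comparison. Neurod4 (gene ID 11923, chromosome 10, 130268152 to 130280254), which acts early in neurogenesis in retina and brain, had 4.29 in FFPE brain and 3.09 in frozen brain, against 2.41 to 3.80 in the 6 other libraries. Its FFPE brain library was the highest of the 8, and its frozen brain library lay within the range of the others. The difference was 0.53 ± 0.41 (SE), with an interval of -0.35 to 1.40 and a limma adjusted p of 0.57. Atoh1 (gene ID 11921, chromosome 6, 64729125 to 64731245), needed for cerebellar granule cells and for hair cells of the inner ear, had 3.93 in FFPE brain and 3.71 in frozen brain. Kidney stood above both, with 3.98 in FFPE kidney and 4.04 in frozen kidney, while heart had 2.78 in FFPE and 3.67 in frozen tissue and liver 3.64 in FFPE and 2.41 in frozen tissue. The brain difference was 0.40 ± 0.42 (SE), with an interval of -0.50 to 1.30 and a limma adjusted p of 0.705.

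Neurog2 (gene ID 11924, chromosome 3, 127632733 to 127635636) specifies excitatory neurons of the cortex from their progenitors. Its level was 5.02 in FFPE brain and 5.06 in frozen brain. It was 5.56 in FFPE heart and 5.33 in frozen heart, 4.82 in FFPE kidney and 4.59 in frozen kidney, and 4.66 in FFPE liver and 4.71 in frozen liver. The highest organ was heart, followed by brain and kidney without overlap, and kidney and liver overlapped. The brain difference was 0.10 ± 0.22 (SE), with an interval of -0.38 to 0.57 and a limma adjusted p of 0.884; this interval lies below the differences of the 5 genes that passed. For heart the difference was 0.64 ± 0.22 (SE) with an interval of 0.16 to 1.12, and its limma adjusted p of 0.170 did not pass. Both heart libraries lay above all 6 others, which 4.18% of tested genes also did.

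Neurog1 (gene ID 18014, chromosome 13, 56250478 to 56252180) specifies sensory neurons of the cranial and spinal ganglia. It was the least covered of the 9 genes, with 36 reads in FFPE brain and 9 in frozen brain, against 4 to 34 in the 6 other libraries. Its level was 2.79 in FFPE brain and 1.98 in frozen brain, against 0.82 in frozen liver to 3.06 in frozen kidney. All neighbouring organs overlapped. The brain difference of 0.03 ± 0.54 (SE) had the widest interval, -1.14 to 1.19, with a limma adjusted p of 0.989, and its sign changed with the library left out (-0.25 to 0.31). The lowest value, 4 reads in frozen liver, is close to the 3 reads that a count of 0 allows.

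**Figure D3:**
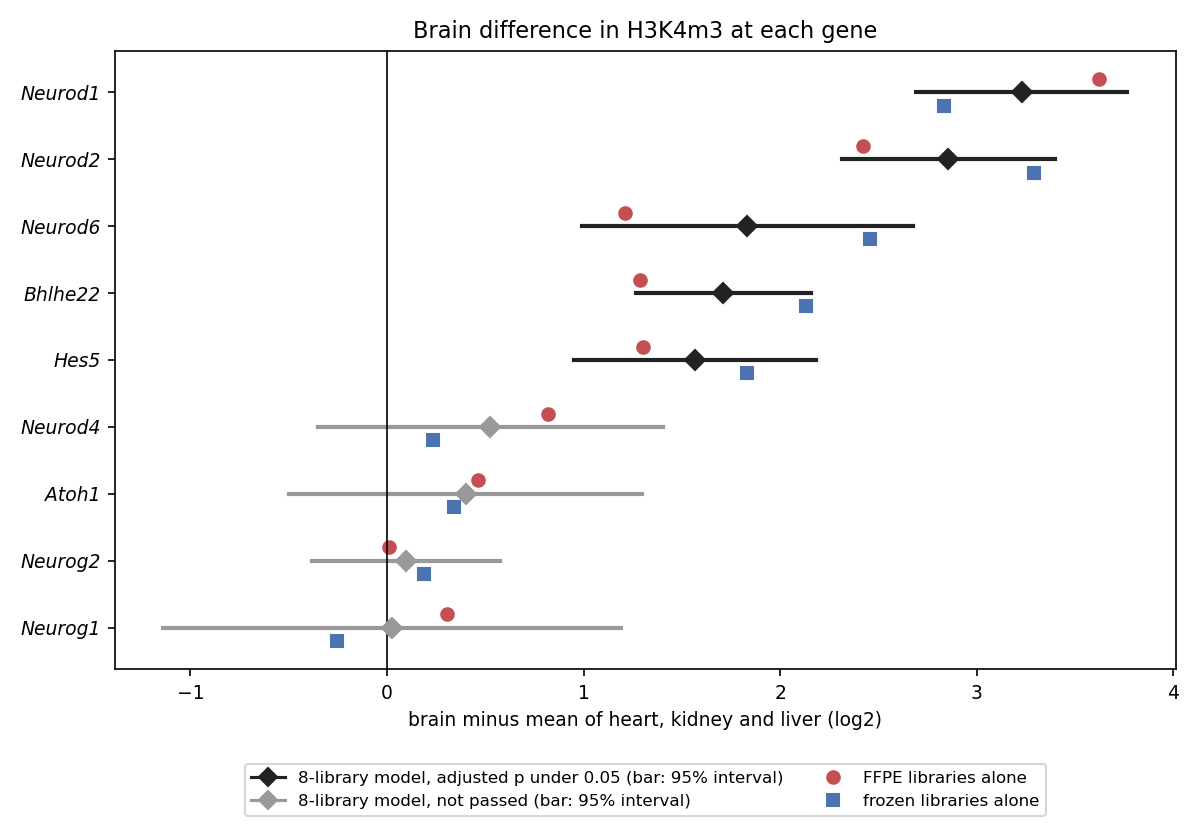
Brain minus the mean of heart, kidney and liver (log2, horizontal axis) for each gene, with the 8-library difference and its 95% interval (diamond and bar), and the difference in FFPE libraries alone (circle) and frozen libraries alone (square). The intervals of Neurod1, Neurod2, Neurod6, Bhlhe22 and Hes5 lie above 0, and those of Neurod4, Atoh1, Neurog2 and Neurog1 cross it.

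Brain is a mixture, and markers of several of its cell types moved with these genes. Of the cerebellar granule neuron markers 9 of 9 were higher in brain, with a summed level of 10.3 to 10.6 (log2) in the brain libraries, against 7.67 to 8.39 in the others. Of the cortical excitatory markers, a list that holds Neurod6 itself, 4 of 8 were higher, with sums of 8.57 to 9.10 in brain against 6.54 to 7.82 in the others. The neuron markers summed to 9.72 to 9.92 in brain and to 7.47 to 8.45 in the others. Astrocyte markers were higher in 2 of 8 cases and oligodendrocyte markers in 4 of 8. Of all tested genes 5.53% were higher in brain. No marker was at 0 reads in brain. The part of cell composition in the values of the 9 genes was not tested.

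The same model gave each of the other organs against the mean of the rest, in which brain is included, so a gene can be lower in an organ through its level in brain. For Neurod1 the mean level was 7.51 in brain, 4.28 in heart, 4.32 in kidney and 4.25 in liver. Heart, kidney and liver overlapped, so its differences in those organs restate its level in brain. In liver 4 of 9 genes were lower and none higher, while 4.84% of tested genes were lower and 9.96% passed in either direction. Neurod2 was lower, at -1.80 ± 0.25 (SE; limma adjusted p 0.000714), Hes5 at -1.37 ± 0.29 (0.00763), Neurod1 at -1.12 ± 0.25 (0.0111) and Bhlhe22 at -1.05 ± 0.21 (0.00553). Without frozen liver Hes5, at -0.69, and Bhlhe22, at -0.89, no longer passed, while Neurod1 was at -1.52 and Neurod2 at -1.35. Without FFPE liver Neurod1 was at -0.72 with an adjusted p of 0.0802. Without the preservation term 0 of the 9 passed in liver.

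In heart 1 gene was lower, Neurod1, at -1.08 ± 0.25 (SE; limma adjusted p 0.0360), against 0.853% of tested genes lower and 2.57% in either direction. That call was narrow: it was lost without any 1 of the 6 libraries of brain, heart and kidney (adjusted p 0.0550 to 0.563), and with read totals in place of the authors' scaling (0.0511). In kidney 0 of the 9 genes passed in limma, against 0.405% of tested genes lower and 1.21% in either direction. At an unadjusted p under 0.05 there were 4 in kidney, Neurod1, Neurod2, Neurod6 and Hes5, against 9.66% of tested genes. Without frozen liver the kidney differences were -0.89 for Neurod1, -0.95 for Neurod2, -0.96 for Neurod6 and -0.85 for Hes5. Without FFPE liver they were -1.16, -0.65, -0.97 and -0.39 in the same order. Atoh1 was highest in kidney, by 0.66 ± 0.42 (SE) over the mean of the other organs, with a limma adjusted p of 0.731.

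Next, FFPE libraries were set against frozen libraries of the same organs. Of the 9 genes 1 was higher in FFPE tissue, Neurod2, 1 was lower, Bhlhe22, and 7 did not pass. The table as a whole differed widely between the preservation types: 16.5% of tested genes were higher in FFPE tissue, 21.3% lower and 37.8% either way, so 2 of 9 is no larger a share than that of all genes. The median over all tested genes was 0.18 as deposited, 0.02 after quantile normalization and 0.35 with read totals, and differences between the preservation types are to be read relative to it.

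Neurod2 was higher in the FFPE library of every organ, by 0.16 in brain, 0.70 in heart, 0.89 in kidney and 1.48 in liver. The difference was 0.81 ± 0.22 (SE), or 1.75-fold, with a limma adjusted p of 0.0115. It was lost with precision weights (adjusted p 0.0751) and without FFPE kidney (0.0549) or frozen kidney (0.0507). Neurod4 was also above in all 4 organs, by 1.20 in brain, 0.40 in heart, 0.07 in kidney and 1.39 in liver. Its difference of 0.77 ± 0.35 (SE) had a limma adjusted p of 0.0986, and it was 0.15 after quantile normalization (0.783). The frozen libraries had 12 to 22 reads at Neurod4. Of all tested genes 26.7% lay above in all 4 organs and 26.6% below in all 4.

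Bhlhe22 was lower in the FFPE library of every organ, at -1.17 in brain, -0.23 in heart, -0.45 in kidney and -0.31 in liver. The difference was -0.54 ± 0.18 (SE) with a limma adjusted p of 0.0307, and brain contributed most. Without FFPE brain or frozen brain it was -0.33 (adjusted p 0.210 and 0.221), and without FFPE kidney or frozen kidney it was -0.57 (0.0863 and 0.0876). It was -0.26 after quantile normalization (0.262) and -0.37 with read totals (0.120). The other genes were mixed across organs: Neurod1 ran from 0.23 in brain to -0.96 in liver, and Hes5 from -0.51 in heart to 1.02 in liver. Neurog2 was the steadiest, between -0.04 and 0.23 in all 4 organs.

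**Figure D4:**
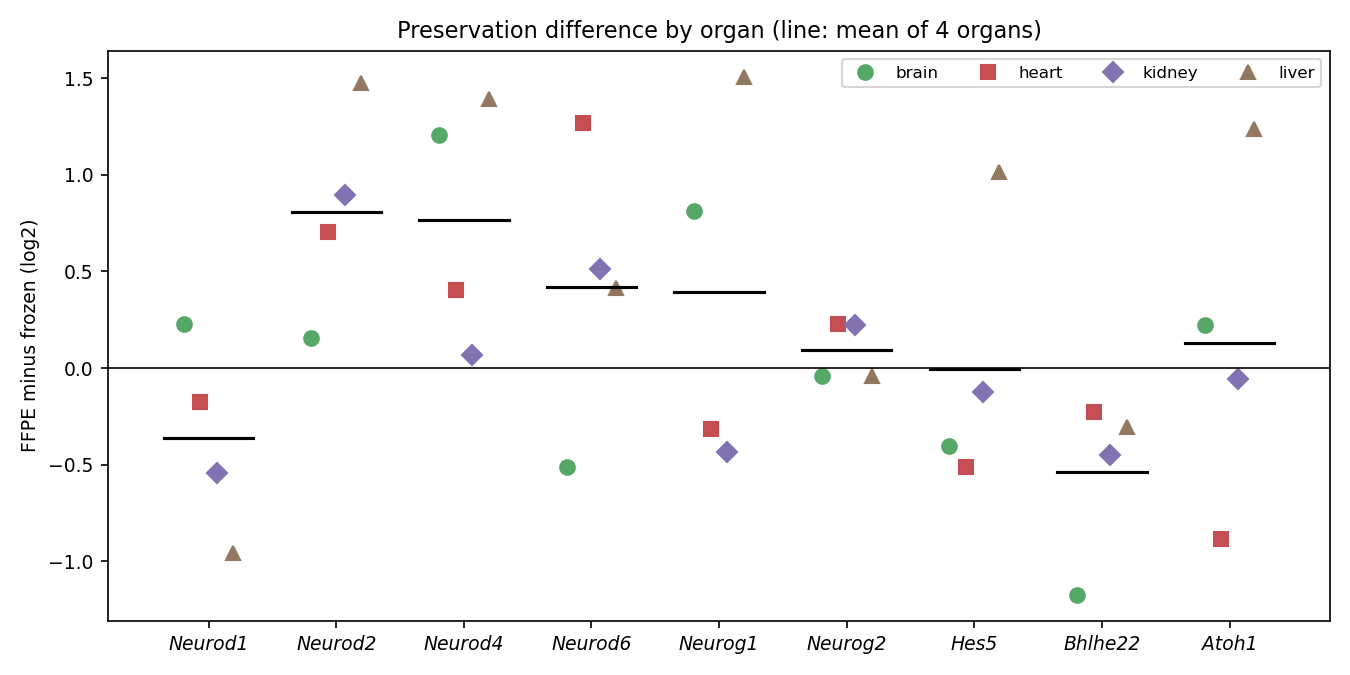
FFPE minus frozen level (log2, vertical axis) of each of the 9 genes, 1 mark per organ. As deposited, Neurod2 and Neurod4 lie above 0 in all 4 organs and Bhlhe22 below 0 in all 4, while Neurog2 stays between -0.04 and 0.23.

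Whether the brain difference itself depended on preservation was tested with a brain by preservation term. No gene of the table passed in limma (0% of 25680), with 674 genes, or 2.62%, at an unadjusted p under 0.05. Among the 9 genes 1 was at an unadjusted p under 0.05, Bhlhe22, whose brain difference in FFPE tissue minus that in frozen tissue was -0.84 ± 0.38 (SE; limma adjusted p 1.00). The same quantity was -1.24 ± 0.76 for Neurod6, -0.87 ± 0.48 for Neurod2 and 0.79 ± 0.49 for Neurod1. This model had 2 residual degrees of freedom. Without FFPE liver 8 genes of the table passed and without frozen liver 2 did, none of the 9 among them.

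Genes of the same pathway were then followed in the brain comparison, by list. Among the Notch ligands 3 of 5 were lower in brain and none higher, with a list median of -0.84. Jag1 was lower, at -0.98 ± 0.17 (SE; limma adjusted p 0.00155), Dll1 at -0.90 ± 0.17 (0.00363) and Dll4, a ligand of blood vessels, at -0.84 ± 0.19 (0.0110). Of the Notch receptors and modulators 2 of 14 were lower and none higher, with a median of -0.13. Notch1 was lower, at -1.03 ± 0.15 (0.000594) and Mfng, which adds sugars to Notch, at -1.31 ± 0.27 (0.00562), while Notch3 had -0.55 (0.0524). Dll4 and Notch1 each overlap another gene of the table, so reads where such pairs overlap cannot be told apart. Some other named genes have close neighbours: Slx4ip lies 100 bases from Jag1, Gm32998 67 from Hes1 and Gm35851 264 from Atoh1. The part of such neighbours in the values was not tested.

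Most Hes and Hey repressors did not pass in brain. Of the 10 besides Hes5, 1 was higher, 1 was lower and 8 did not pass, with a median of -0.44. Of all tested genes 5.53% were higher and 4.53% lower, so 1 of 10 each way is close to the shares of the table. Hes1, the widely used Notch effector, had 5.47 in FFPE brain and 6.44 in frozen brain, against 6.57 to 7.83 in the other libraries, and was lower, at -1.29 ± 0.17 (SE; limma adjusted p 0.000256). Hey1 had 7.25 in FFPE brain and 7.62 in frozen brain, against 5.61 to 7.33 in the others, of which frozen heart lay above FFPE brain, and was higher by 1.23 ± 0.19 (0.000713). Nrarp, a feedback inhibitor of Notch, had -0.55 (0.0554). Hes5 and Hey1 were thus higher in brain and Hes1 lower.

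Of the 7 E proteins, the partners of proneural factors, and Id proteins, which sequester those partners, 2 were lower and none higher, with a median of -0.05 as deposited (-0.10 after quantile normalization and 0.00012 with read totals). Both were Id genes: Id3 was lower, at -1.76 ± 0.22 (SE; limma adjusted p 0.000127) and Id2 at -0.74 ± 0.22 (0.0440). Tcf4, the E protein gene with the smallest p, had 0.53 (0.0533).

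For these 4 lists the number of passing genes moved with the library left out. The number over all tested genes moved too, as given at the end. Without frozen brain the median was -0.72 for the ligands and -0.17 for the receptors and modulators. It was -0.28 for the Hes and Hey genes and -0.28 for the E and Id genes. Jag1, Dll1, Dll4, Notch1, Mfng, Hey1 and Id2 then no longer passed, whereas Hes1 and Id3 did. Without FFPE liver the medians were -0.17 for the receptors and modulators, -0.18 for the Hes and Hey genes and -0.08 for the E and Id genes. Dll4 was also lost without FFPE brain or frozen kidney, Mfng without FFPE brain, and Id2 (-0.44 without frozen brain) without any 1 of the libraries of brain, heart and kidney, which left 1 of the E and Id genes.

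Other bHLH genes were followed in a neural and a mesodermal list. Of 15 other neural bHLH genes, 6 were higher in brain and none lower, with a median of 0.84. Atoh7, which specifies retinal ganglion cells, had 4.44 in FFPE brain and 5.63 in frozen brain, against 1.35 to 2.08 in the others. Its difference was 3.29 ± 0.50 (SE), or 9.78-fold (limma adjusted p 0.000623), on 6 to 20 reads in the other organs. Nhlh2, a factor of differentiating neurons, had 6.39 in FFPE brain and 5.92 in frozen brain, against 3.20 to 4.74 in the others, and was 4.28-fold higher (0.000107). Npas4, induced by neuronal activity, was higher by 2.39 ± 0.39 (SE; 0.00102), and by 1.35 without frozen brain (0.220) or 3.43 without FFPE brain. The others that passed were Olig1, Olig2 and Ascl4.

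Of 18 mesodermal bHLH genes 1 was higher in brain and 4 lower, with a median of -0.65. Tcf21, a factor of kidney and heart mesenchyme, was lower, at -2.34 ± 0.41 (SE; limma adjusted p 0.00180) and Lyl1, a blood and vessel factor, at -0.99 ± 0.22 (0.00890), and Hand2 and Mesp1 were lower too. Tcf21 was at -1.44 without frozen brain (0.194). Scx, a tendon factor, was higher by 1.99 ± 0.34 (0.00137). Scx lies within Bop1 and Tcf21 within Gm10824, both genes of the table, so their reads cannot be told apart from those of the neighbours. Lyl1 overlaps Nfix only at an end, and only reads where they overlap cannot be told apart.

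Of 24 genes that act downstream of proneural factors 12 were higher in brain and 1, Ebf3, was lower, with a median of 0.84. The RNA-binding protein genes Elavl3 and Elavl4 were higher by 2.07 ± 0.25 (SE; limma adjusted p 0.000104) and 2.24 ± 0.28 (0.000166). Stmn2, a regulator of microtubules in growing axons, had 5.82 in FFPE brain and 5.51 in frozen brain, against 2.29 to 3.44 in the others, a 6.25-fold difference (0.000182). Without frozen brain the median was 0.54 for the other neural, -0.75 for the mesodermal and 0.65 for the downstream genes. The numbers of passing genes moved with the library left out, as did the number over all tested genes, given at the end. Atoh7, Npas4, Scx, Tcf21 and Lyl1 were lost without frozen brain, and Lyl1 also without FFPE brain, while Nhlh2, Elavl3, Elavl4 and Stmn2 passed in every such fit. The shares of the lists stand beside 5.53% of all tested genes higher and 4.53% lower.

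**Figure D5:**
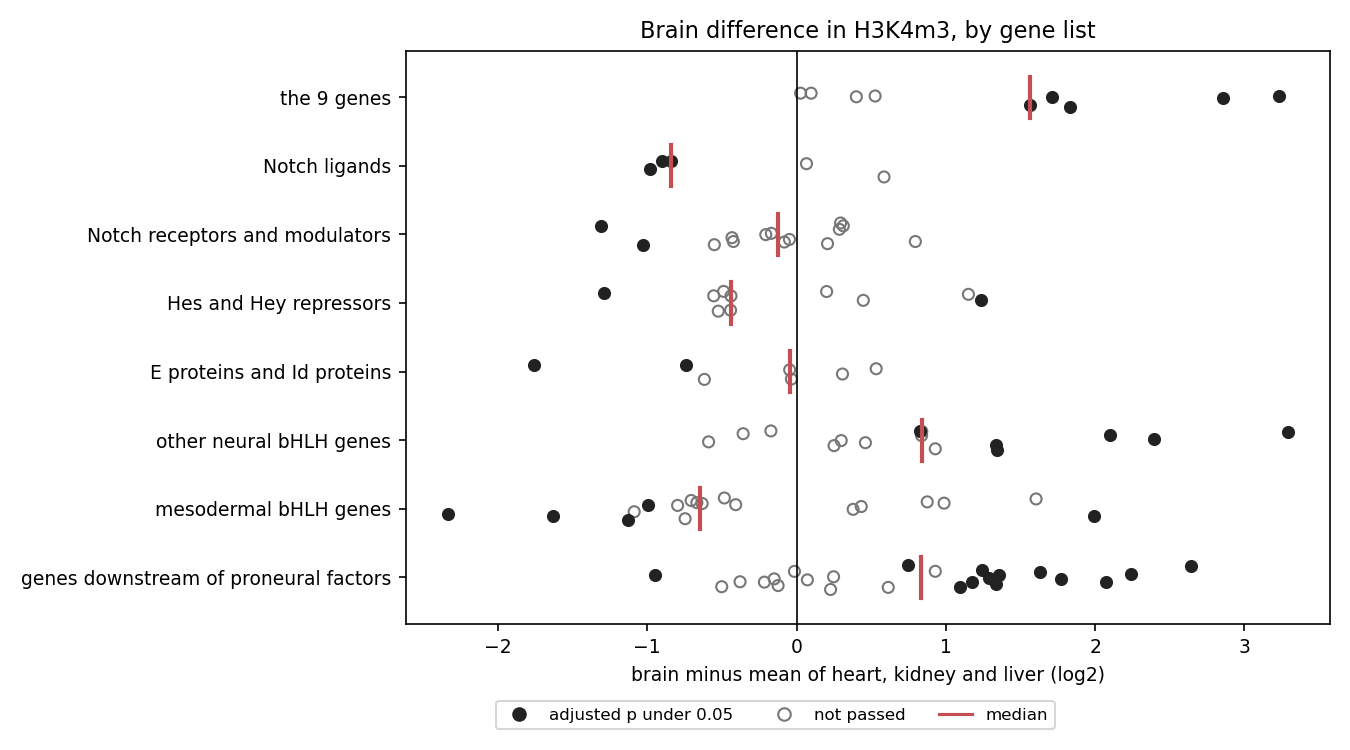
Brain minus the mean of the other organs (log2, horizontal axis) for each gene of the 9 and of 7 related lists; filled marks passed at an adjusted p under 0.05, open marks did not, and the red line is the list's median. The medians of the 9 genes (1.57), the other neural bHLH genes (0.84) and the downstream genes (0.84) lie above 0, and those of the Notch ligands (-0.84) and mesodermal bHLH genes (-0.65) below.

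Between the preservation types the list counts stand beside 21.3% of all tested genes lower in FFPE tissue, 16.5% higher and 37.8% either way. In this comparison 6 of 7 E and Id protein genes were lower in FFPE tissue and none higher, with a median of -0.53. After quantile normalization 2 were lower and 1 higher (median -0.29), with read totals 3 were lower (median -0.37), and without FFPE kidney or frozen kidney 3 were lower. Id3 was lower, at -1.02 ± 0.19 (SE; limma adjusted p 0.00118). Of the 10 Hes and Hey genes 4 were lower and 1 higher (3 to 6 lower with a library left out), with Hes6, which promotes neurogenesis, lower, at -1.18 ± 0.16 (0.000276). Atoh8 was lower, at -0.93 ± 0.16 (0.000916), Lmo4 at -0.96 ± 0.14 (0.000386) and Mesp1 at -1.10 ± 0.29 (0.00913; 0.0501 without frozen brain and 0.0527 without frozen kidney). Jag2 was higher by 0.87 ± 0.28 (0.0255), and by 0.41 without FFPE liver (0.101) or frozen liver (0.0741). Notch4 was lower, at -0.44 ± 0.14 (0.0213) as deposited but at 0.11 after quantile normalization, and it was lost without either brain library (0.104 and 0.105) or either kidney library (0.0762 and 0.0759). The counts of the other lists, higher and lower, were 1 and 0 of the ligands, 2 and 3 of the receptors and modulators, 4 and 3 of the other neural, 2 and 1 of the mesodermal and 3 and 3 of the downstream genes. These moved with scaling. The receptors and modulators had 3 and 0 after quantile normalization and 4 and 0 with read totals, the other neural genes 2 and 3 and then 6 and 1, and the mesodermal genes 2 and 3 and then 3 and 1. The median of the other neural genes was 0.45 as deposited and -0.21 after quantile normalization, and that of the receptors and modulators -0.01 and 0.31.

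The profile over the 8 libraries was compared with every other tested gene by Pearson's r, as a description over libraries that share depth and preparation. The mean profile of the 9 genes was most like those of Kcnd2, a potassium channel gene of neurons (r = 0.991), Tmem151b (0.990), C130071C03Rik (0.989), Btbd17 (0.986) and Kash5 (0.986). For Neurod1 the closest were Cnksr2 (0.982), Angel1 (0.975) and Zic1 (0.971), the last a transcription factor of cerebellar granule cells. For Neurod2 they were Dclk1 (0.991), a kinase gene of migrating neurons, Mctp1 (0.988) and Kcnj9 (0.987). For Neurod6 they were Pnmal1 (0.991), Gm5067 (0.983) and Epha6 (0.977), for Hes5 Gp1bb (0.990), Trnp1 (0.989) and Fam189b (0.989), and for Bhlhe22 Tmem231 (0.988), B230319C09Rik (0.983) and Sgcz (0.973). Among the 9 genes themselves, Neurod2 and Neurod6 had an r of 0.912, Neurod2 and Hes5 0.891, Neurod1 and Bhlhe22 0.869, and Neurod1 and Neurod2 0.815. The neurogenins, at 0.207, were little alike, while Neurog1 and Atoh1 had 0.766. Frozen liver was the lowest library of both Neurog1 and Atoh1, on 4 and 13 reads.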

How the data were processed

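The authors deposited 1 table of log2 values. Per the submitters' processing notes, they used Bowtie2, featureCounts and limma on mm10. The sources used here give neither tool versions nor the part of a gene that was counted. Each deposited log2 value was that of reads plus 0.5, in CPM of a scaled library size: 100% of them gave whole reads to within 0.001. Counting limits (3 reads for a count of 0) were 0.537 CPM in FFPE kidney to 1.69 CPM in frozen heart and cover counting error only.

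Genes with a mean log2 value of at least 0 were fitted with limma 3.58.1 (moderated by empirical Bayes along an intensity trend; R 4.3.3), with organ and preservation as terms, 8 libraries and 3 residual degrees of freedom, and Benjamini-Hochberg adjustment over 25680 genes. Nothing in the labels ties the libraries to different animals. With 1 library for each organ and preservation type, no replicate spread could be measured. The p-values reflect how far the FFPE minus frozen difference varied between organs, moderated over genes. That variation may be technical. Genes were named by rule: all 9, the 3 genes of each list with the smallest p for brain and the 1 for FFPE, and the closest profiles. Olig1, Olig2, Ascl4, Hand2, Mesp1 (in brain) and Ebf3 were named after their values were seen. Nhlh1 is in the neural and the downstream list. Olig1 and Olig2 are in the neural list and among the oligodendrocyte markers. Tubb3 is in the downstream list and among the neuron markers, and Tbr1 in the downstream list and among the cortical excitatory markers. Slc17a7 is among both the neuron and the cortical excitatory markers. The genes and lists were chosen with earlier results of these data known. Of 27179 gene IDs 25275 matched the RefSeq GRCm38.p6 table, which gave positions and promoters, and 1275 had no symbol. Alternatives were another filter, scaling, weighting, prior or model, and each library left out; read totals were added after seeing the data. The input samples are not analysed here.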

Additional observations from a re-analysis of the deposited data

Results flagged for a closer look

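In 27 sets of 4 or 6 libraries, 3 for each of the 9 genes, the highest or lowest library was compared with the rest by Dixon's ratio of gap to range, and 4 sets passed the 95% critical value, which chance passes in about 5% of such sets. For Neurod1, FFPE brain at 7.62 stood apart from the 3 other FFPE libraries (ratio 0.892), and frozen brain at 7.40 from the 3 other frozen libraries (ratio 0.880). For Neurod6, frozen brain at 5.22 stood apart from the other frozen libraries (ratio 0.903), while FFPE brain was not picked out. These 3 are brain libraries and show the brain difference of the report again. For Neurog1, frozen liver at 0.82 lay below the other 5 libraries of heart, kidney and liver (ratio 0.673), on 4 reads.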

How the results depend on the processing

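No paired analysis was possible because the columns carry no replicate numbers; the organ term does set each FFPE library against the frozen library of its organ. The planned count models and the TMM scaling they use were not run, and the reads recovered from the log2 values were used in the limma fit with precision weights only. With each library left out in turn, the lowest and highest numbers of passing genes were 342 and 4288 for brain (2583 with all), 2 and 2097 for heart (661), 0 and 1030 for kidney (310; 563 at an unadjusted p under 0.05 in the limma fit with 0), 468 and 4833 for liver (2559), 6052 and 8665 for FFPE against frozen (9717), and 0 and 8 for the brain by preservation term, which could not be fitted without a brain library. An organ left with 1 library is assumed to vary like the other organs. Among the 9 genes the range was 3 to 5 higher in brain, 2 to 4 lower in liver, 0 to 2 lower in heart, 0 to 3 lower in kidney, 0 to 1 higher and 0 to 1 lower in FFPE tissue. For the lists in brain it was 0 to 3 of the Notch ligands, 0 to 5 of the receptors and modulators, 1 to 5 of the Hes and Hey genes, 1 to 4 of the E and Id genes, 1 to 8 of the other neural, 0 to 6 of the mesodermal and 4 to 13 of the downstream genes. The sign changed for Neurog1 in brain (-0.25 to 0.31) and, between FFPE and frozen, for Hes5 (-0.35 to 0.16) and Atoh1 (-0.24 to 0.47).

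Without the preservation term 472 genes passed for brain, 0 for heart (limma; 1358 at an unadjusted p under 0.05), 15 for kidney and 209 for liver, with 3 of the 9 genes higher in brain and 0 lower in liver or heart. The lists then had 0 ligands, 0 receptors and modulators, 0 Hes and Hey, 0 E and Id, 2 other neural, 2 mesodermal and 3 downstream genes; this fit counts the preservation difference as spread. Quantile normalization gave 1324 genes for heart and 793 for kidney, with 1 of the 9 lower in kidney and 0 lower in FFPE tissue, 4 receptors and modulators and 4 E and Id genes. It reversed Neurod6 (-0.047), Neurog1 (-0.38), Atoh1 (-0.41) and Notch4 (0.11) between FFPE and frozen. Precision weights gave 417 genes for heart, with 0 of the 9 lower in heart and 0 higher in FFPE tissue. Read totals gave 306 for heart and 154 for kidney, with 0 of the 9 lower in heart or in FFPE tissue, and turned Hes5 between FFPE and frozen to 0.16. No filter gave 201 for kidney, with 0 of the 9 lower in heart and 1 E or Id gene. The share of higher among passing genes was 43.6% in FFPE against frozen and 57.3% with read totals; with precision weights it was 91.6% in heart (66.9% as reported), 84.3% in kidney (66.5%) and 65.2% in liver (51.5%). A stricter filter and a prior of 3 reads moved no such count by over 1.5 times. For these alternatives the cause was not tested.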
